A study of Mus musculus with 6 samples.

Results

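The genes described here encode the parts of the MHC class II presentation pathway that are named by function. They were chosen by role with no threshold on the measured values, but with earlier results of these data known. They are 7 of the 32371 genes in the count table: H2-Aa, H2-Ab1 and H2-Eb1 (classical class II chains), Cd74 (the invariant chain), H2-DMa and H2-DMb1 (the H2-DM peptide exchanger) and Ciita (the class II transactivator). The counts came from 6 RNA-Seq libraries of adult C57BL/6J mice, 3 that received AAV2-GFP in the vitreous and 3 that received AAV2-Ezh2-Y726D. Ezh2-Y726D is a form of the histone methyltransferase Ezh2 whose catalytic activity is lost through 1 amino acid change, and the study used it to ask whether the methyltransferase activity of Ezh2 is needed when injured ganglion cells survive and regrow axons. In both groups the optic nerve was crushed (ONC) 2 weeks after the virus, and live CD90.2-positive cells were sorted from dissociated retinas 3 days after ONC. The mice were of both sexes and 6 to 10 weeks old. Every library therefore carries a virus and an injury, and no uninjured or uninjected group was compared. The sources used here do not say how many mice a library holds, so the p-values measure the spread between these libraries.

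MHC class II molecules display peptides from proteins taken up by a cell to CD4 T cells. The alpha and beta chains assemble in the endoplasmic reticulum with the invariant chain, which blocks the groove and steers the complex to endosomes. There proteases such as cathepsin S trim the invariant chain, and H2-DM swaps its last fragment for a peptide. Expression is largely confined to B cells, dendritic cells, macrophages and activated microglia, and can be induced in other cells by interferon gamma. It depends on Ciita, which does not bind DNA itself but is recruited by the RFX, NF-Y and CREB factors that sit on the X and Y boxes of class II promoters. Mice of the C57BL/6 background have a defective H2-Ea gene and make no I-E molecule, although the partner chain gene H2-Eb1 is transcribed.

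CD90.2 is the Thy1 antigen, which ganglion cells and mouse T cells carry. Libraries held 9333244 to 23782520 counts. The rRNA gene CT010467.1 took 50.9% and 52.2% of counts in GFP replicates 2 and 3, and 2.55% to 16.1% in the other 4 libraries. Ezh2, the overexpressed gene, was 2.76 times higher with Ezh2-Y726D, at 24.3 ± 1.88 CPM (SD, n = 3) against 65.2 ± 0.212 CPM, as the labels require. CPM here are read counts relative to a library total scaled by TMM, a method that sets most genes level between libraries. Markers of ganglion cells summed to between 417 and 429 CPM with GFP and between 412 and 448 CPM with Ezh2-Y726D, and cells of other types were present in both groups.

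The upstream sequences of 2 class II chain genes are shown because class II promoters are where Ciita is known to be recruited. RefSeq promoter windows on GRCm38.p6, which run from 250 bases before a start site to 50 bases after it, were found for 4 of the 6 members on chromosomes 16 and 17 (H2-Aa, H2-Eb1, H2-DMa and H2-DMb1). H2-Ab1 and Ciita were not among them. The 150 bases before the start lie at chr17:34287824-34287973 on the minus strand for H2-Aa and at chr17:34305717-34305866 on the plus strand for H2-Eb1, outside both genes as annotated. Capitals mark TGATTGG, which holds the inverted CCAAT of a Y box, and AACTGATGATGCT, which resembles an X box and is the longest run of bases that the H2-Eb1 and H2-DMb1 windows share.
H2-Aa: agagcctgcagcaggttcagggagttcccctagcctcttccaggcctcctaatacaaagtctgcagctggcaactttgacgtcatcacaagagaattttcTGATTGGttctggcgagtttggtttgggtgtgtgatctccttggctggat
H2-Eb1: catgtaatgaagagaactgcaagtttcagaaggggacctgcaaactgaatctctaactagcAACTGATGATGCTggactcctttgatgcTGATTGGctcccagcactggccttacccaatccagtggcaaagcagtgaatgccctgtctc

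In the H2-Eb1 window the shared run began 89 bases before the start and TGATTGG 61 bases before it, with 15 bases in between. In the H2-DMb1 window the run began 92 bases and TGATTGG 63 bases before the RefSeq start, 16 bases apart, so the pair had nearly the same spacing in both genes. The GENCODE vM21 model of H2-DMb1 starts further upstream, and there this pair falls in the first exon. Both sets of letters were searched on both strands and were chosen after the windows had been read, so their presence in these genes is a description. The run was present in 3 of 32851 windows (0.00913%), the third being that of Slc39a10, a zinc transporter gene, and TGATTGG was present in 7.82% of windows. H2-Aa held TGATTGG 50 bases before its start without the run, and the 2 windows of H2-DMa held neither. A looser X box pattern of 11 letters, of which 4 are free, was found in none of the 4 members with a window and in 5.31% of all windows. ATTGG, which is also contained in TGATTGG, was found in all 4 and in 37.4% of all windows. These matches describe letters and do not show binding.

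All 7 class II genes were lower in the Ezh2-Y726D libraries. The 4 most abundant, H2-Aa, H2-Ab1, H2-Eb1 and Cd74, were between 1.75 and 1.77 times lower, H2-DMb1 1.72 times, Ciita 1.57 times and H2-DMa 1.44 times. All 7 passed an adjusted P under 0.05, against 13.6% of the 18138 genes tested that passed in this direction. By the DEG thresholds of the study (adjusted P under 0.05 and fold change over 1.5), 6 of the 7 were DEGs, against 5.5% of genes tested, and H2-DMa fell short on fold change. In all 7 genes every Ezh2-Y726D library lay below every GFP library, which was so for 18.9% of genes tested. The 7 genes were chosen with earlier results of these data known, so these shares describe them and are no test of the set. These are bulk libraries, so fewer cells of a type and less RNA per cell cannot be told apart.

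**Figure D1:**
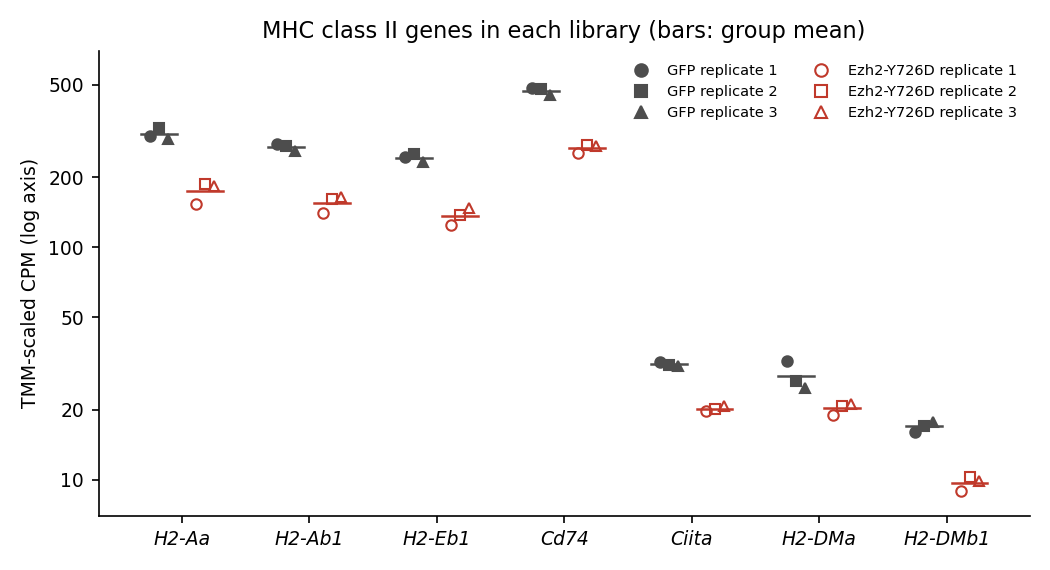
TMM-scaled CPM (log axis) of each class II gene in each of the 6 libraries, with filled symbols for GFP, open symbols for Ezh2-Y726D and a bar at each group mean. Every open symbol lies below every filled symbol of the same gene, from Cd74 at 253 to 484 CPM down to H2-DMb1 at 8.89 to 17.7 CPM.

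H2-Aa (ENSMUSG00000036594; chr17:34282744-34287823, minus strand) encodes the alpha chain of I-A, the class II molecule of this strain. It was at 302, 325 and 292 CPM in GFP replicates 1 to 3 and at 153, 187 and 183 CPM with Ezh2-Y726D. The highest Ezh2-Y726D library was thus well below the lowest GFP library, and the log2 fold change was -0.81 ± 0.054 (SE, n = 3 against 3, edgeR quasi-likelihood test, adjusted P = 2.51e-12). H2-Ab1 (ENSMUSG00000073421; chr17:34257689-34269419, plus strand) encodes the partner beta chain. It was at 279, 274 and 260 CPM with GFP and at 141, 162 and 164 CPM with Ezh2-Y726D. The groups did not overlap, with a log2 fold change of -0.81 ± 0.048 (SE, edgeR, adjusted P = 3.18e-13). H2-Eb1 (ENSMUSG00000060586; chr17:34305867-34316674, plus strand) encodes the beta chain of I-E, whose alpha chain gene H2-Ea had 1 count in all 6 libraries together. It was at 243, 252 and 232 CPM with GFP and at 125, 138 and 147 CPM with Ezh2-Y726D. Its fall matched that of the I-A chains in size, with a log2 fold change of -0.83 ± 0.048 (SE, edgeR, adjusted P = 2.1e-13).

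Cd74 (ENSMUSG00000024610; chr18:60803848-60812652, plus strand) encodes the invariant chain, which also serves as a receptor for the cytokine Mif. It was the most abundant of the 7, at 484, 478 and 452 CPM with GFP and at 253, 274 and 272 CPM with Ezh2-Y726D. The log2 fold change of -0.83 ± 0.042 (SE) had the smallest adjusted P of the group (edgeR, 1.51e-14). The microRNA gene Mir5107 shares 0.71% of its exon length on the same strand.

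H2-DMa (ENSMUSG00000037649; chr17:34119541-34139101, plus strand) and H2-DMb1 (ENSMUSG00000079547; chr17:34153072-34160230, plus strand) encode the alpha and a beta chain of the peptide exchanger. H2-DMa was at 32.3, 26.5 and 24.7 CPM with GFP and at 19.0, 20.7 and 21.2 CPM with Ezh2-Y726D. GFP replicate 1 was the high library, and the groups were separated by a smaller margin than in any other member. The log2 fold change was -0.53 ± 0.079 (SE, edgeR, adjusted P = 5.82e-06) and was -0.34 without GFP replicate 1 (adjusted P = 0.00807). Brd2, on the opposite strand, shares 10.4% of the exon length of H2-DMa, and the counting is not stated to have used strand. Brd2 was at 203 ± 4.57 CPM (SD, n = 3) with GFP and 196 ± 4.49 CPM with Ezh2-Y726D. H2-DMb1 was at 16.1, 17.001 and 17.7 CPM with GFP and at 8.89, 10.3 and 9.88 CPM with Ezh2-Y726D. The groups lay far apart, at a log2 fold change of -0.78 ± 0.091 (SE, edgeR, adjusted P = 9.44e-08).

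Ciita (ENSMUSG00000022504; chr16:10480059-10528418, plus strand) encodes the transactivator on which the other 6 genes depend in professional presenting cells. It was at 32.2, 31.0 and 31.0 CPM with GFP and at 19.7, 20.1 and 20.7 CPM with Ezh2-Y726D, the tightest replicates of the 7. The log2 fold change was -0.65 ± 0.065 (SE, edgeR, adjusted P = 5.56e-09). Dexi, on the opposite strand, shares 3.45% of its exon length.

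Together the 7 genes held 1771 to 1897 CPM in the GFP libraries and 967 to 1098 CPM in the Ezh2-Y726D libraries when counts were divided by the library total without CT010467.1 in place of TMM. GFP replicate 1, with little rRNA, and GFP replicate 2, with much, both stood at 1897 CPM on this scale, and GFP replicate 3, also with much rRNA, stood at 1771 CPM. Among all genes tested the log2 fold change had a median of 0.0018, and the middle 50% lay between -0.15 and 0.15. Only 3.2% to 3.73% of genes had a lower log2 fold change than H2-Aa, H2-Ab1, H2-Eb1, Cd74 or H2-DMb1. For Ciita the share was 5.52% and for H2-DMa 7.7%.

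The calls did not hold under raw library totals. When libraries were scaled by their raw totals, which in GFP replicates 2 and 3 are mostly rRNA, the median over all genes rose to a log2 fold change of 0.49, and none of the 7 members passed, with adjusted P between 0.518 and 0.98. Their log2 fold changes were still negative, from -0.33 (Cd74) to -0.01 (H2-DMa), which is 0.50 to 0.82 below that median. Of all DEGs, 68.6% were lower in the TMM fit and 29.2% of only 65 DEGs with raw totals. Without GFP replicates 2 and 3 the log2 fold changes of the 7 members ran from -0.86 (Cd74) to -0.67 (H2-DMa).

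**Figure D2:**
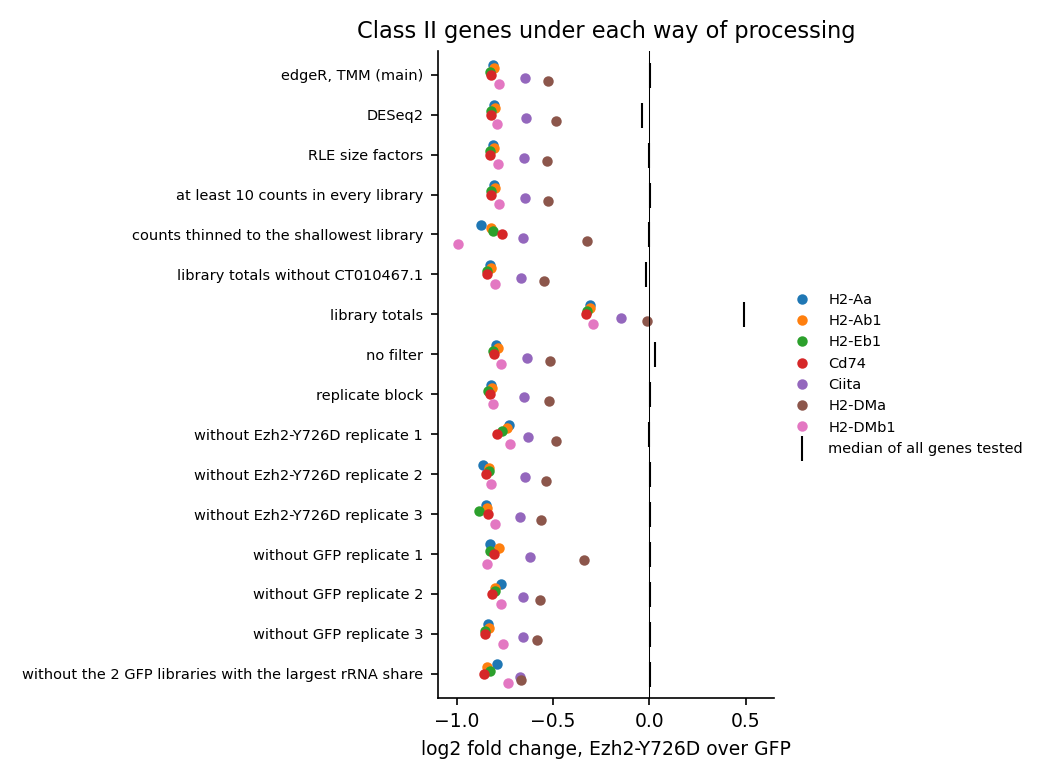
Log2 fold change of each class II gene (coloured points) under TMM scaling with edgeR and under each of 15 other ways of processing, with a black tick at the median of all genes tested. The points stay between -0.996 and -0.32 except with raw library totals, where all genes shift to the right and the tick moves to 0.49.

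Levels of different genes were compared per kilobase of exon. Cd74 was highest, at 281 ± 10.1 CPM per kb (SD, n = 3) with GFP and 159 ± 6.94 with Ezh2-Y726D, followed by H2-Eb1 (125 ± 5.19 and 70.4 ± 5.76), H2-Ab1 (105 ± 3.89 and 60.5 ± 5.01) and H2-Aa (80.6 ± 4.48 and 45.9 ± 4.80). Within a group no libraries of neighbouring genes in this order overlapped, and the closest were the lowest Ezh2-Y726D library of H2-Eb1, at 64.4 CPM per kb, and the highest of H2-Ab1, at 63.8. H2-DM and Ciita were far lower. H2-DMb1 was at 10.1 ± 0.491 CPM per kb with GFP and 5.76 ± 0.424 with Ezh2-Y726D, and H2-DMa at 8.07 ± 1.15 and 5.89 ± 0.347. These 2 neighbours were not separated beyond their spread with Ezh2-Y726D. Ciita was lowest, at 3.29 ± 0.0717 and 2.12 ± 0.0569 CPM per kb. The order assumes that all annotated exons are used.

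Ratios of counts within a library, which no scaling can change, were used to see whether the members fell by the same amount. In log2 units, the ratio of H2-Aa to H2-Ab1 changed by -0.01, that of H2-Eb1 to H2-Ab1 by -0.02, that of Cd74 to H2-Ab1 by -0.02 and that of H2-DMb1 to H2-Ab1 by -0.0042, each with overlapping groups. For H2-DMa and Ciita the ratios moved upward, with no P past the threshold. The log2 ratio of H2-DMa to H2-DMb1 was 1.00, 0.64 and 0.48 with GFP and 1.09, 1.01 and 1.10 with Ezh2-Y726D, so the difference of 0.36 came with GFP replicate 1 close to the Ezh2-Y726D libraries. The log2 ratio of Ciita to Cd74 was -3.91, -3.95 and -3.87 with GFP and -3.69, -3.77 and -3.71 with Ezh2-Y726D, a rise of 0.19 with a clear gap between groups. Over the 10 ratios of single genes computed, the smallest two-sided exact permutation P was 0.1, the lowest that 3 against 3 can give, and it was 0.25 after Benjamini-Hochberg adjustment.

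The wider class II pathway was read from 7 lists ordered by role, 32 genes of which 31 passed the filter on low counts. Of these, 16 were lower, 0 were higher and 15 did not pass at an adjusted P under 0.05, with a median log2 fold change of -0.28 beside 0.0018 over all genes tested. Across all genes tested, 13.6% were lower and 13.9% higher at this threshold. By role, 6 of 7 genes that make peptides in endosomes were lower and 1 of 7 factors that bind class II promoters, and the difference between the lists was not tested.

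**Figure D3:**
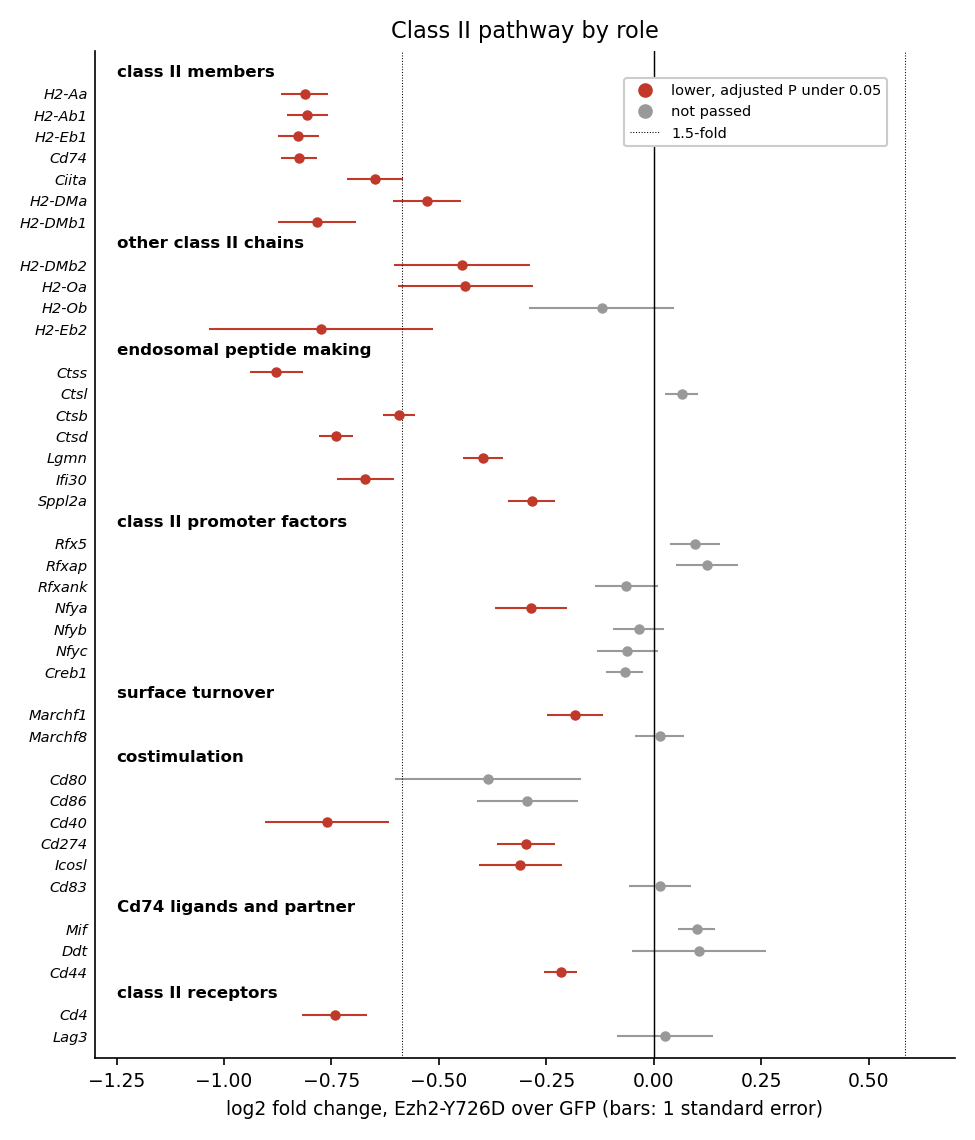
Log2 fold change of Ezh2-Y726D over GFP for each class II gene and for the tested genes of 7 lists of partners and regulators, with bars of 1 SE and dotted lines at a 1.5-fold change. Red points passed an adjusted P under 0.05 and all of these lie to the left of 0, while 6 of the 7 promoter factors are grey and lie near 0.

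The other class II chains were scarce. H2-DMb2, which differs little in sequence from H2-DMb1 and may share reads with it, was at 5.43, 4.89 and 5.80 CPM with GFP and at 3.45, 3.38 and 4.84 CPM with Ezh2-Y726D (log2 fold change -0.45 ± 0.16, SE, edgeR, adjusted P = 0.0356). H2-Oa, the alpha chain of the H2-DM inhibitor H2-O, was at 4.94, 5.80 and 6.46 CPM with GFP and at 3.60, 3.52 and 4.70 CPM with Ezh2-Y726D (-0.44 ± 0.16, adjusted P = 0.0363). H2-Ob, the beta chain of H2-O, was at 3.22 to 3.35 CPM with GFP and at 2.98 to 3.04 CPM with Ezh2-Y726D, and did not pass (-0.12 ± 0.17, adjusted P = 0.669). B cells and some dendritic cells use H2-O to hold back H2-DM. H2-Eb2 was lower with a large error (-0.77 ± 0.26, adjusted P = 0.0257). The calls of H2-DMb2, H2-Oa and H2-Eb2 were lost in some alternatives, including DESeq2.

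Among the 7 genes of peptide making in endosomes, 6 were lower and 4 were DEGs, with a median log2 fold change of -0.59. Ctss, the cathepsin that cuts the invariant chain in presenting cells, was at 422, 497 and 492 CPM with GFP and at 221, 271 and 272 CPM with Ezh2-Y726D. Its log2 fold change of -0.88 ± 0.061 (SE, edgeR, adjusted P = 6.56e-12) was close to that of Cd74. Ifi30, the thiol reductase that opens disulfide bonds of antigens, fell from 45.4 to 49.6 CPM to 26.4 to 31.9 CPM (-0.67 ± 0.066, adjusted P = 5e-09). The broadly expressed proteases Ctsd (-0.74 ± 0.039), Ctsb (-0.59 ± 0.037) and Lgmn (-0.40 ± 0.046) were lower as well, as was Sppl2a (-0.28 ± 0.054), which cuts the last membrane fragment of the invariant chain. Ctsl, which takes the place of cathepsin S in thymic epithelium, was the exception, at 225 to 230 CPM with GFP and 235 to 239 CPM with Ezh2-Y726D (0.07 ± 0.038, adjusted P = 0.232).

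Of the 7 genes for the RFX, NF-Y and CREB factors of the class II promoter, only Nfya, a subunit of the CCAAT-binding NF-Y, passed, at 23.9, 23.4 and 25.3 CPM with GFP and 16.9, 20.1 and 22.1 CPM with Ezh2-Y726D (log2 fold change -0.29 ± 0.084, SE, edgeR, adjusted P = 0.0106). Rfx5, the DNA-binding subunit of RFX, was at 36.5 to 39.7 CPM with GFP and 39.2 to 41.2 CPM with Ezh2-Y726D (0.10 ± 0.059, adjusted P = 0.258), and its partner Rfxap was at 0.12 ± 0.073 (adjusted P = 0.235). The call of Nfya was lost with DESeq2 and when single libraries were left out, at -0.18 without Ezh2-Y726D replicate 1 (adjusted P = 0.0867). These factors are made in most cell types, unlike Ciita.

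Of the 2 ubiquitin ligases that take class II off the surface, Marchf1, the form of resting presenting cells, was slightly lower (-0.18 ± 0.065, SE, edgeR, adjusted P = 0.0356), and at -0.12 without GFP replicates 2 and 3 (adjusted P = 0.314). Of 6 costimulatory molecules, 3 were lower. Cd40, which receives help from T cells, was at 6.34, 7.86 and 5.47 CPM with GFP and at 3.53, 4.01 and 4.03 CPM with Ezh2-Y726D (-0.76 ± 0.14, adjusted P = 0.000137). The checkpoint ligand Cd274 (-0.30 ± 0.067) and the ICOS ligand Icosl (-0.31 ± 0.097) were lower too, and the call of Icosl was lost in some alternatives, including DESeq2. Of the ligands and partner of Cd74, Cd44, its signalling partner, was lower (-0.22 ± 0.039, adjusted P = 7.6e-05), whereas the ligand Mif was at 113 to 121 CPM with GFP and 123 to 132 CPM with Ezh2-Y726D and did not pass (0.10 ± 0.043, adjusted P = 0.0885). Cd4, the coreceptor that binds class II and a marker of helper T cells, was at 24.3, 27.9 and 28.2 CPM with GFP and at 15.7, 15.02 and 15.8 CPM with Ezh2-Y726D. Its log2 fold change of -0.74 ± 0.076 (SE, edgeR, adjusted P = 8.76e-09) was near that of the class II chains. Lag3, the other receptor for class II that was listed, was at 9.002, 8.76 and 6.96 CPM with GFP and at 9.16, 9.10 and 8.05 CPM with Ezh2-Y726D and did not pass (0.03 ± 0.11, adjusted P = 0.906).

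The route from interferon gamma to Ciita was lower in 9 of 10 genes, of which 3 were DEGs, with a median log2 fold change of -0.51. Ifng itself was rare, at 1.65, 2.06 and 1.16 CPM with GFP and 0.676, 1.08 and 0.981 CPM with Ezh2-Y726D (-0.87 ± 0.28, SE, edgeR, adjusted P = 0.0206). Of its receptor chains, Ifngr1 (-0.57 ± 0.053) was at a lower log2 fold change than Ifngr2 (-0.22 ± 0.062), though the difference between these genes was not tested, and the kinase Jak2 was at -0.17 ± 0.046. The calls of Ifng and Ifngr2 were lost in some alternatives, including DESeq2, and that of Jak2 without GFP replicates 2 and 3. Irf1, an interferon-induced factor that acts on a Ciita promoter, was at 108, 108 and 113 CPM with GFP and 80.2, 85.5 and 81.3 CPM with Ezh2-Y726D (-0.41 ± 0.044, adjusted P = 2.72e-08). The myeloid factors Spi1 (-0.85 ± 0.091) and Irf8 (-0.68 ± 0.053) were lower still. All 10 genes chosen as readouts of interferon gamma were lower, with a median of -0.47, from Gbp3 (-0.28 ± 0.049) to Iigp1 (-0.74 ± 0.060), GTPases that defend cells against intracellular microbes.

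Nearly all cells use MHC class I presentation. All 9 of its genes were lower at an adjusted P under 0.05, with a median log2 fold change of -0.43, and 1 was a DEG, Psmb8, a subunit of the immunoproteasome (-0.67 ± 0.051). The heavy chain H2-K1 was at 638, 623 and 631 CPM with GFP and 474, 477 and 484 CPM with Ezh2-Y726D (-0.40 ± 0.037, SE, edgeR, adjusted P = 1.99e-09), and the light chain B2m was at -0.43 ± 0.043. Nlrc5, the relative of Ciita that drives class I genes, fell by 0.61 ± 0.047 on the log2 scale (adjusted P = 6.2e-11), close to Ciita. Within libraries, the summed counts of H2-Aa, H2-Ab1, H2-Eb1 and Cd74 relative to those of the class I list were lower by 0.40 in log2 units with Ezh2-Y726D, without overlap of the groups (exact permutation P = 0.1, the lowest that 3 against 3 can give).

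The 5 H2 members lie on chromosome 17 within 34119541 to 34316674 on GRCm38, where 17 genes are annotated, and 7 others besides the members were tested. Of these 7, 5 were lower and 0 were higher. Those lower were H2-DMb2 and the class I genes Psmb9 (-0.56 ± 0.068), Tap1 (-0.54 ± 0.045), Psmb8 (-0.67 ± 0.051) and Tap2 (-0.34 ± 0.056), which encode immunoproteasome subunits and the peptide transporter. Brd2, a bromodomain gene expressed in most cells, lies in the same interval next to H2-DMa and was at -0.05 ± 0.039 (SE, edgeR, adjusted P = 0.382). H2-Ob was the other that did not pass.

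Class II genes are mainly expressed by immune cells, and markers of several such cells moved with them. A sort for CD90.2 would be expected to remove most macrophages, monocytes, B cells and dendritic cells, which carry little or none of this antigen, whereas T cells pass it. Of 11 pan-macrophage markers, 10 were lower and 9 were DEGs, and their summed level was 1064 to 1173 CPM with GFP and 587 to 683 CPM with Ezh2-Y726D. C1qa, the complement subunit made by microglia and macrophages, was at 186, 201 and 187 CPM with GFP and at 95.5, 113 and 112 CPM with Ezh2-Y726D (-0.84 ± 0.051, SE, edgeR, adjusted P = 4.84e-13), and C1qb fell alike (-0.90 ± 0.059). Csf1r, the survival receptor of these cells, was lower as well (-0.39 ± 0.051), as were Cd68 (-1.29 ± 0.064) and Adgre1 (-1.33 ± 0.064). Of 6 monocyte markers, 5 were lower, and the sum was 115 to 123 CPM with GFP and 55.8 to 65.2 CPM with Ezh2-Y726D, with Ccr2 at -0.62 ± 0.069, Plac8 at -0.95 ± 0.095 and Ly6c2 at -1.58 ± 0.085. Vcan did not pass, with overlapping groups (-0.19 ± 0.14, edgeR, adjusted P = 0.368). Of 8 homeostatic microglia markers, 2 were lower, 4 did not pass and 2 were higher, namely P2ry12 (0.33 ± 0.11) and Sall1 (0.61 ± 0.14), and the sum was 225 to 240 CPM with GFP and 187 to 225 CPM with Ezh2-Y726D. The calls of P2ry12 and Sall1 were each lost in some alternatives, that of Sall1 at 0.39 without GFP replicate 1 (adjusted P = 0.143).

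All 7 T cell markers were lower and were DEGs, with sums of 104 to 108 CPM and 58.1 to 65.7 CPM. The most abundant were Lck (-0.76 ± 0.077), Cd5 (-0.79 ± 0.087) and Cd3g (-0.67 ± 0.082). B cell markers were near the limit of detection, with sums of 13.3 to 15.5 CPM and 5.59 to 6.95 CPM, of which Cd22, which microglia can also express, was the most abundant (-1.39 ± 0.13). Only 5 of the 7 B cell markers passed the filter and 3 of these were lower, Cd22, Cd79b and Ms4a1, of which the calls of Cd79b and Ms4a1 were lost in some alternatives, including DESeq2. Of 6 perivascular macrophage markers, 3 passed the filter and 2 were lower, Mrc1 (-1.57 ± 0.22) and F13a1 (-1.65 ± 0.19), with list sums of 16.95 to 20.5 CPM and 8.67 to 10.02 CPM. The most abundant of them, Lyve1, was at 7.601, 8.11 and 8.61 CPM with GFP and at 6.19, 6.31 and 6.67 CPM with Ezh2-Y726D and did not pass (-0.30 ± 0.12, adjusted P = 0.0515), though it did in 2 alternatives. Cd163 had 0 to 2 counts in any library. Dendritic cell markers summed to 69.7 to 74.8 CPM with GFP and 54.1 to 59.1 CPM with Ezh2-Y726D. Of these 8, Itgax (-0.54 ± 0.077), Ccr7 (-0.66 ± 0.11) and Xcr1 were lower and Cd209a was higher (0.84 ± 0.31, adjusted P = 0.0445, with overlapping groups). The other 4 did not pass, among them Zbtb46, a factor that defines classical dendritic cells, at 12.7, 12.5 and 12.9 CPM with GFP and 13.96, 11.6 and 13.4 CPM with Ezh2-Y726D (0.04 ± 0.093, adjusted P = 0.797), and the growth factor receptor Flt3 (-0.27 ± 0.10, adjusted P = 0.0547, which passed in 3 alternatives). Cd209a was at 1.88 without GFP replicate 1 and at 0.47 without GFP replicates 2 and 3, and Ccr7 at -0.38 without GFP replicate 1. The calls of Xcr1 and Cd209a were lost in some alternatives. The part of these cell types in the fall of the class II genes was not tested.

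Among the retinal cells, 2 of 8 ganglion cell markers were higher and 0 were lower, and all 6 amacrine cell markers were higher, with a median log2 fold change of 0.65. Of 6 Müller glia markers 2 were lower and 1 was higher, with sums of 9434 to 9844 CPM with GFP and 8352 to 8616 CPM with Ezh2-Y726D. The 1 DEG among them was Apoe, at -0.64 ± 0.038 (SE, edgeR, adjusted P = 3.18e-13). Of 6 endothelial markers 2 were lower. None of these 4 lists had a median below -0.15.

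**Figure D4:**
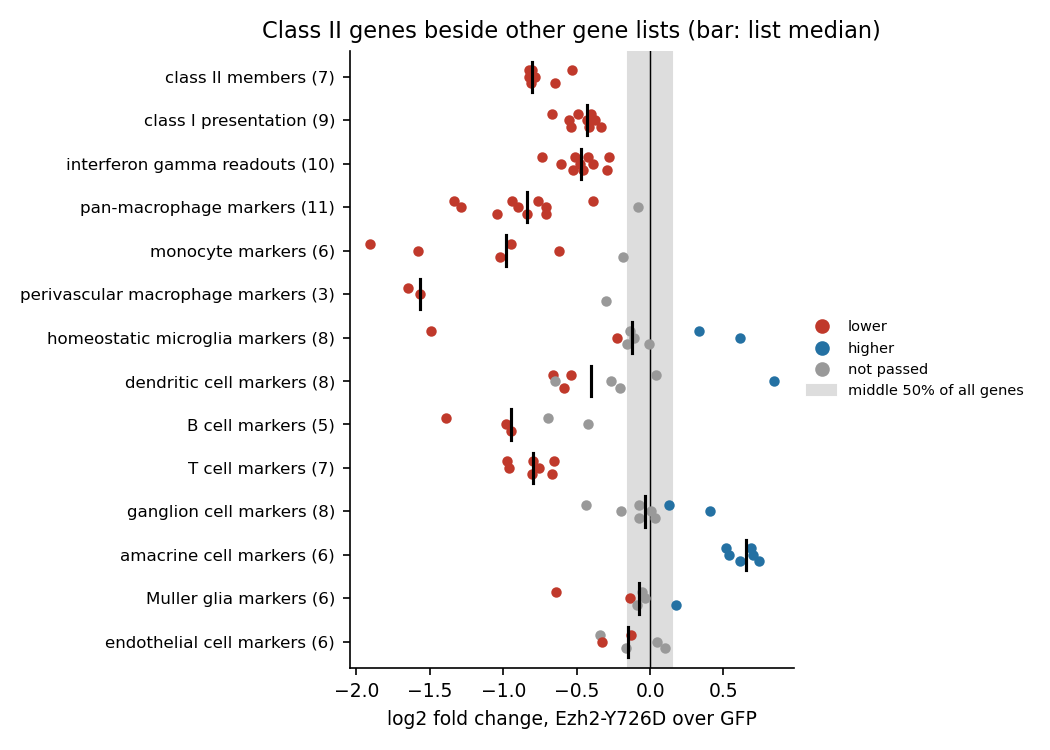
Log2 fold change of Ezh2-Y726D over GFP for every tested gene of the class II members and of 13 further lists, with the number tested in brackets, a black bar at each list median and a grey band over the middle 50% of all genes tested. The class II genes, with a median of -0.81, sit beside the pan-macrophage (-0.84) and T cell (-0.79) markers, and the homeostatic microglia markers (-0.13) lie on the band.

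To place the class II chains against each cell type without any scaling, the summed counts of H2-Aa, H2-Ab1, H2-Eb1 and Cd74 were divided by those of each marker list within a library. Relative to the pan-macrophage markers the log2 ratio was 0.30, 0.18 and 0.18 with GFP and 0.19, 0.17 and 0.17 with Ezh2-Y726D, a difference of -0.04 with overlapping groups. Relative to the T cell markers it differed by -0.06, also with overlap. Relative to the homeostatic microglia markers the log2 ratio was 2.54, 2.47 and 2.39 with GFP and 1.85, 1.82 and 1.77 with Ezh2-Y726D, which is a fall of 0.66 on the log2 scale without overlap, and relative to the dendritic cell markers it fell by 0.47, again without overlap. Relative to the B cell and monocyte markers the ratio rose by 0.39 and 0.13, without overlap. Relative to perivascular macrophage markers it rose by 0.16 with overlapping groups. In an alternative chosen after seeing the data, each list was taken without its most abundant gene. Without Lyve1 the ratio to the perivascular macrophage markers rose by 0.98, without overlap, with the sum of the other markers at 10.4 CPM with GFP and 2.99 CPM with Ezh2-Y726D. The rise relative to the B cell markers was then 0.14, with overlap, that relative to the monocyte markers 0.31, without overlap, and the difference from the pan-macrophage markers -0.05, without overlap. Relative to single genes, Cd74 fell by 0.43 against Csf1r, without overlap, and by 0.10 against Ptprc, the pan-leukocyte antigen CD45, with overlap.

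**Figure D5:**
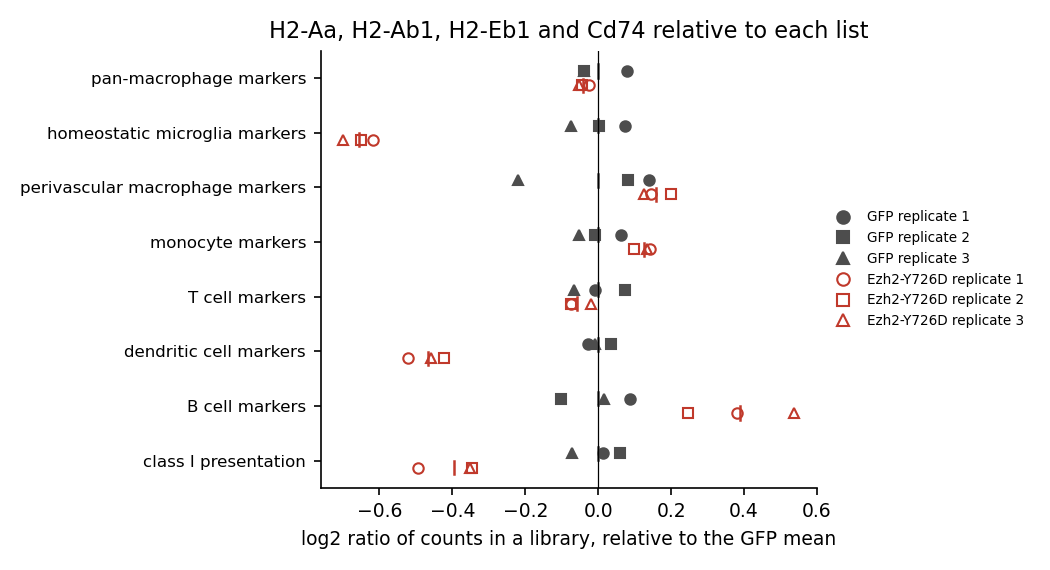
Log2 ratio of the summed counts of H2-Aa, H2-Ab1, H2-Eb1 and Cd74 to those of each list in each library, shifted so that the GFP mean of each list is 0, with filled symbols for GFP, open symbols for Ezh2-Y726D and a bar at each mean. Open and filled symbols overlap for the pan-macrophage and T cell markers, with 1 open symbol of each among the filled ones and the others just to their left, and open symbols lie apart to the left for the homeostatic microglia (-0.66), dendritic cell (-0.47) and class I (-0.40) lists.

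The genes whose profile over the 6 libraries was most like the mean of H2-Aa, H2-Ab1, H2-Eb1 and Cd74 were sought among 12244 genes with a mean of at least 5 CPM, by the root mean square difference of centred log2 CPM. The 5 closest were Birc3 (0.0224), C1qa (0.0362), Lcp1 (0.0392), Pld4 (0.0399) and C1qc (0.0454). Birc3, an inhibitor of apoptosis and a target of NF-kB, was at 18.7, 19.3 and 18.1 CPM with GFP and at 9.83, 10.7 and 11.2 CPM with Ezh2-Y726D (log2 fold change -0.82 ± 0.086, SE). Lcp1, the leukocyte plastin, was at -0.87 ± 0.043, Pld4 at -0.82 ± 0.069 and C1qc at -0.77 ± 0.057. The measure rests on 6 libraries that differ mainly between groups, so it ranks genes by the size of the same fall.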

How the data were processed

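The authors deposited 1 table of raw read counts per gene for 6 libraries, prepared by a total RNA kit that keeps strand. The submitters' processing notes name STAR 2.7.0d and GRCm38. The counting tool, annotation and strand setting are not given in the sources used here. Gene symbols came from a gene name table (46 of 32371 identifiers had none), and coordinates, exon lengths and overlaps from GENCODE vM21.

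Counts were tested with edgeR 4.0.16 (R 4.3.3; quasi-likelihood test, TMM, filterByExpr with a minimum of 10 counts and a total of 15), adjusted by Benjamini-Hochberg across the 18138 genes left by this filter. Adjusted P was called at 0.05, and a DEG also needed a fold change over 1.5. Every ± after a log2 fold change is its SE. TMM factors ran from 0.647 to 1.31, and totals without CT010467.1 from 4460732 counts (GFP replicate 3), the least precise library, to 22024582 (Ezh2-Y726D replicate 3). No pair of libraries was a duplicate. The script was tested on simulated data.

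The 7 members, the gene lists and the marker lists were chosen with earlier results of these data known. Named genes are the 7 members, Ezh2, CT010467.1, list genes with a mean of at least 1 CPM in a group, up to 3 of the most abundant genes of each marker list with those that went against it, and the 5 genes most like the class II chains. H2-Ea, Cd163, Ptprc, Thy1, Brd2, Lyve1, Lag3, Zbtb46, Flt3, Slc39a10, Xcr1, Adgre1, Cd68, Itgam, Vcan and Apoe were named after their values were seen. Some items are not reported here. Alternatives were DESeq2 1.42.0, RLE size factors, raw library totals with and without CT010467.1, 2 other filters, counts thinned to the shallowest library, a replicate block, a fold change over 2, leaving out libraries and, for the ratios, leaving out the most abundant gene of each list. CPM per kb divides by the union of annotated exons.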

Additional observations from a re-analysis of the deposited data

How the results depend on the processing

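All 7 members remained lower at an adjusted P under 0.05, and 6 were DEGs, in 13 of the 14 alternatives that kept at least 2 libraries per group. Across these 13 the share of all genes tested that passed as lower ran from 5.09% (DESeq2) to 16.1% (at least 10 counts in every library). With raw library totals this share was 0.105%. Leaving out GFP replicates 2 and 3 was an alternative chosen after seeing the data, in which the lone GFP library was assumed to vary like the Ezh2-Y726D libraries. The log2 fold changes of the members then ran from -0.86 (Cd74) to -0.67 (H2-DMa). With raw library totals 0 of 7 passed and 0 were DEGs, 0 had an unadjusted p under 0.05, and 65 genes were DEGs in place of 1455. The SE of the members then rose to between 0.386 and 0.393, and the SEs under TMM were at most 0.0913. With a fold change over 2 as the threshold, 443 genes and 0 members were DEGs, since all 7 fell by less. Leaving out each library in turn gave 1207 to 1404 DEGs, with 7 members lower and 6 DEGs each time. Of all genes tested, 10.2% (without GFP replicate 1) to 12.6% (without Ezh2-Y726D replicate 1) then passed as lower. H2-DMa moved over 1.5 times, from -0.53 to -0.34 without GFP replicate 1 and to -0.32 when counts were thinned to 4460732 per library, and the cause was not tested. Relative to other marker lists in place of the pan-macrophage markers (-0.04), the class II chains differed by -0.66 (homeostatic microglia) and 0.16 (perivascular macrophages) in log2 units. With the most abundant gene of each list left out, an alternative chosen after seeing the data, these differences were -0.79 and 0.98, and that from the pan-macrophage markers was -0.05.

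Besides raw library totals, 15 named genes lost a call in at least 1 alternative and kept their direction, namely Cd209a, Cd79b, H2-DMb2, H2-Eb2, H2-Oa, Icosl, Ifng, Ifngr2, Jak2, Marchf1, Ms4a1, Nfya, P2ry12, Sall1 and Xcr1, and the cause was not tested. With raw library totals some named genes, among them some of these 15, changed sign, to 0.081 (B2m), 0.45 (Brd2), 0.20 (Cd274), 0.29 (Cd44), 0.12 (Csf1r), 0.22 (Flt3), 0.22 (Gbp3), 0.018 (H2-DMb2), 0.10 (H2-K1), 0.0049 (H2-Oa), 0.34 (H2-Ob), 0.19 (Icosl), 0.28 (Ifngr2), 0.095 (Irf1), 0.34 (Jak2), 0.12 (Lgmn), 0.17 (Lyve1), 0.31 (Marchf1), 0.20 (Nfya), 0.22 (Sppl2a) and 0.16 (Tap2). All are below the median of all genes on that scale, 0.49. The log2 fold change of Lag3, which did not pass, ran from -0.032 (without GFP replicate 3) to 0.13 (without GFP replicate 1) when each library was left out, and was -0.043 without GFP replicates 2 and 3. The log2 fold change of Zbtb46, which did not pass either, ran from -0.0083 (without Ezh2-Y726D replicate 1) to 0.11 (without Ezh2-Y726D replicate 2) and was -0.050 with thinned counts. Cd209a, Ifng and Ms4a1 had too few counts for a stricter filter and gave no value under it, and Ifng and Ms4a1 gave none with thinned counts either.

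Libraries share replicate numbers across groups, but the labels tie them to no shared animal or day. Deviations of same-numbered libraries from their group means correlated at 0.072, 0.034 and 0.024, and each library correlated best with its own number, which is a hint only. With the replicate number as a block, 1403 genes were DEGs and 7 members were lower, 6 of them DEGs, while 14.05% of all genes tested passed as lower.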
